A study of Mus musculus with 9 samples.

Results

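Bone mineral forms when osteoblasts raise the phosphate around their matrix and keep pyrophosphate low. The 8 mouse genes Alpl, Phospho1, Smpd3, Enpp1, Ank, Slc20a1, Slc20a2 and Ifitm5, which encode enzymes, transporters and a membrane protein of this process, were followed by RNAseq in the embryonic skull at E14.5. They were chosen by name, as enzymes and transporters of mineralization, with earlier results of these data known. Each was a single row among the 43539 Ensembl gene identifiers that had values. The MCAGF8 cranial vault came from embryos carrying Msx2-Cre and CAGF8, an Fgf8b cDNA placed in the Rosa26 locus behind a Lox-Stop-Lox cassette and driven by the CAG promoter. Msx2-Cre acts in the surface ectoderm and not in the bone beneath it, and the skin was peeled off before the tissue was taken. Control tissue, from the cranial vault and from the cartilage of the cranial base, came from embryos labelled wildtype. The study describes its controls as lacking Cre. By its breeding scheme every embryo receives the CAGF8 allele, so these controls would carry it with the Stop cassette still in place. All were of mixed strain background, and the study kept the CAGF8 line on outbred Black Swiss. Each library was made from the RNA of 3 tissue samples put together, with 3 libraries per group and 9 in all. Every SD and p given here describes the spread between pools. The control embryos gave both vault and base tissue, which pool holds which embryo is not stated, and the fit treats the pools of both tissues as independent.

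Mineral is first seeded in matrix vesicles, small particles that bud from osteoblasts and hypertrophic chondrocytes. Inside them Phospho1, a phosphatase, releases phosphate from phosphocholine and phosphoethanolamine, and Smpd3, a neutral sphingomyelinase, can supply phosphocholine from the membrane. On the cell and vesicle surface Alpl, tissue-nonspecific alkaline phosphatase, breaks down pyrophosphate, which inhibits crystal growth. Enpp1 makes that pyrophosphate from nucleotides and Ank exports pyrophosphate or its nucleotide precursors, while Slc20a1 and Slc20a2 carry phosphate into cells with sodium.

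The deposited values are FPKM, fragment counts scaled to transcript length and to the mapped reads of the library, so levels of different genes can be set side by side. Read depth is unknown. The sum of FPKM over all genes ranged from 793249 to 1315982 between libraries, and 16006 to 17281 genes reached 1 FPKM. On the log2(FPKM + 1) scale Pearson r between libraries of one group was 0.970 to 0.974 in the control vault, 0.959 to 0.980 in the MCAGF8 vault and 0.904 to 0.946 in the control base. Base replicate 2 stood apart in its cartilage genes, with Col10a1, the collagen of hypertrophic cartilage, at 658 FPKM against 115 and 74.2 in the other base pools. Fgf8, the gene carried by the transgene, ranged from 9.43 to 19.5 FPKM in the MCAGF8 vault and from 3.01 to 13.5 in the control vault and from 3.78 to 17.4 in the base, so the ranges overlapped.

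Summed FPKM of 11 osteoblast markers was 10181 to 14359 in the control vault, 7254 to 8509 in the MCAGF8 vault and 2506 to 4513 in the control base. All 11 were lower in the MCAGF8 vault than in the control vault, 5 of them called (limma on log2(FPKM + 1), unadjusted p under 0.05 with Benjamini-Hochberg adjusted p under 0.1), and Bglap2 was listed at 0 in all 3 MCAGF8 pools. In bulk tissue fewer osteoblasts and less RNA per osteoblast cannot be told apart. Other cell types also differed between the vaults. The summed level of 10 skeletal muscle markers was 1110, 6887 and 1930 FPKM in the control vault pools and 25.1 to 290 in the MCAGF8 pools, with 10 of 10 lower and 7 called. The 11 epidermis markers summed to 34.3 to 117 FPKM in the control vault and 417 to 1050 in the MCAGF8 vault, with 10 of 11 higher and 2 called. The 9 chondrocyte markers summed to 1602 to 2256 FPKM and 2291 to 4140, with 8 of 9 higher and 0 called by limma (1 reached an unadjusted p under 0.05, and a linear model without moderation gave 0 by either criterion). The 5 hypertrophic chondrocyte markers, several of which bone also expresses, summed to 154 to 288 and 95.9 to 131, with 5 of 5 lower and 1 called. The part of these cell types in the results below was not tested.

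**Figure D1:**
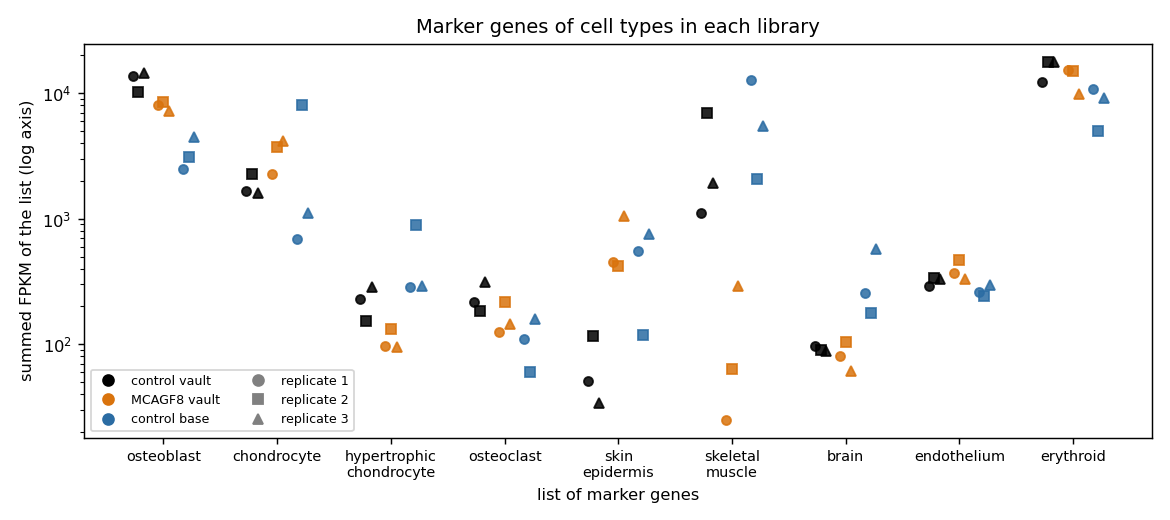
Summed FPKM of 9 lists of cell type marker genes (x axis) in each of the 9 libraries, on a log axis. Colour marks the group and symbol shape the replicate number. Osteoblast marker sums lay between 7254 and 8509 in the MCAGF8 vault, below the control vault range of 10181 to 14359, and skeletal muscle sums were below 290 in all MCAGF8 pools.

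RefSeq promoter windows were found for 6 of the 8 genes, with more than 1 start for Alpl and Slc20a1. Those of Phospho1 and Ifitm5 are shown because their levels moved together across the libraries, and the outer Alpl window for comparison with another enzyme of the phosphate pathway. Each line runs 5′ to 3′ on the gene's strand, in build GRCm38.p6. It ends before both the RefSeq start and the start in the gene annotation. The last 48 upstream bases of the Ifitm5 window and the last 1 of the Phospho1 window are therefore left out. Capitals mark GGGCGG or its reverse complement CCGCCC, the GC box letters.
Phospho1 promoter: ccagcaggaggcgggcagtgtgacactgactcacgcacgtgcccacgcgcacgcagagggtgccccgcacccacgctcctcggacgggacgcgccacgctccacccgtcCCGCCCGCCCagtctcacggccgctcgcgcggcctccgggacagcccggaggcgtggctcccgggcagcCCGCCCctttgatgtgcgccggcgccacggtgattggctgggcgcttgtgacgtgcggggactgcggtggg
Ifitm5 promoter: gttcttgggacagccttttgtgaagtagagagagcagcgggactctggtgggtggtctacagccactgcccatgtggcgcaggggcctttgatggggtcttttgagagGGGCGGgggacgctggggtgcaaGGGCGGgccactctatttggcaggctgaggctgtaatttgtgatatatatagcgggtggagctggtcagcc
Alpl promoter: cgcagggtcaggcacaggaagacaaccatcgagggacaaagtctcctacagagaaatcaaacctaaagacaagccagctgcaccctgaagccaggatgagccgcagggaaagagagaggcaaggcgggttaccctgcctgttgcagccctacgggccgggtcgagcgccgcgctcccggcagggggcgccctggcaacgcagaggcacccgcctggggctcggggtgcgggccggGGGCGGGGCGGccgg
The Phospho1 stretch is chr11:95824250-95824498 on the plus strand, Ifitm5 is chr7:140950292-140950493 on the minus strand, and Alpl is chr4:137796385-137796634 on the minus strand. Their GC contents were 75.5%, 58.9% and 68.4%. The GC box letters occurred 3 times upstream of Phospho1, with a pair of matches overlapping by 2 bases, and 2 times upstream of Ifitm5. They occurred 2 times upstream of Alpl, overlapping by 1 base. Among all 32851 RefSeq windows of 300 bases, 35.66% held these letters on either strand, so a match does not set these genes apart. The RUNX letters TGTGGT are in 16.76% of the windows. The letters searched for as a TATA box, TATAAA, are in 13.62%. The homeodomain letters TAATTA are in 5.291%. None of these 3 was found on either strand of the stretches shown, which says nothing about binding. The stretches are shorter than the windows behind these shares, which also hold 50 bases after the start.

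Phospho1 (ENSMUSG00000050860, chromosome 11 from 95824499 to 95832140) was at 179.8, 90.5 and 240.2 FPKM in the 3 control vault pools. In the MCAGF8 vault it was at 9.16, 20.8 and 5.83 FPKM. The control base held 47.1, 36.2 and 99.6 FPKM. The highest MCAGF8 pool was thus far below the lowest control vault pool, and the base pools lay mostly between the vaults. The means were 170.1 ± 75.3 and 11.9 ± 7.84 FPKM (SD, n = 3 each), a 14.3-fold lower level in the MCAGF8 vault. On the log2(FPKM + 1) scale Phospho1 fell by 3.79 (SE 0.52, limma, Benjamini-Hochberg adjusted p = 0.0374 over 18714 genes).

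Smpd3 (ENSMUSG00000031906, chromosome 8 from 106252548 to 106337988) showed a difference of like size at a lower level. The control vault pools were at 51.9, 26.4 and 69.0 FPKM. The MCAGF8 pools were at 2.22, 5.82 and 2.34 FPKM. Control base pools were at 24.5, 44.6 and 59.4 FPKM, inside or next to the control vault range and above every MCAGF8 pool. From 49.1 ± 21.5 to 3.46 ± 2.05 FPKM (SD, n = 3 each) the mean was 14.2-fold lower in the MCAGF8 vault. Smpd3 fell by 3.48 on the log2 scale (SE 0.44, limma, adjusted p = 0.0322).

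Alpl (ENSMUSG00000028766, chromosome 4 from 137741733 to 137796384) had a lower mean in the MCAGF8 vault but was not called. It was at 149, 72.4 and 198 FPKM in the control vault. It was at 57.8, 89.4 and 40.3 FPKM in the MCAGF8 vault. The ranges overlapped, since MCAGF8 replicate 2 was above control vault replicate 2. In the control base Alpl was at 50.2, 44.9 and 103 FPKM, much as in the MCAGF8 vault. Vault means were 140.1 ± 63.5 and 62.5 ± 24.9 FPKM (SD, n = 3 each), a ratio of 2.24, and the log2 difference was -1.11 (SE 0.44, 95% interval -2.10 to -0.11, limma, adjusted p = 0.674, unadjusted p = 0.0326). At a later embryonic stage the study saw very little activity of the enzyme in stained MCAGF8 vaults compared with controls. That is enzyme activity in sections and not RNA at E14.5.

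Enpp1 (ENSMUSG00000037370, chromosome 10 from 24637914 to 24712159), the pyrophosphate-making enzyme, had the lowest mean of the 8 genes in both control tissues. Control vault pools were at 20.6, 9.37 and 17.2 FPKM, and MCAGF8 pools at 7.58, 7.68 and 5.57 FPKM. All 3 MCAGF8 values were below all 3 control vault values. The means were 15.7 ± 5.74 and 6.94 ± 1.19 FPKM (SD, n = 3 each), and the log2 difference of -1.02 (SE 0.47, 95% interval -2.07 to 0.038) was not called (limma, adjusted p = 0.818). In the control base Enpp1 was at 4.24, 19.9 and 7.25 FPKM, so the cartilage-rich base replicate 2 was 4.69 times the lowest base pool.

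Ank (ENSMUSG00000022265, chromosome 15 from 27466677 to 27594909), the pyrophosphate exporter, was at 18.1, 11.8 and 19.9 FPKM in the control vault. It was at 9.21, 12.8 and 10.3 FPKM in the MCAGF8 vault. One MCAGF8 pool, replicate 2, was above control vault replicate 2, so the ranges overlapped. The log2 difference was -0.56 (SE 0.27, 95% interval -1.16 to 0.039, limma, adjusted p = 0.843) between means of 10.8 ± 1.86 and 16.6 ± 4.29 FPKM. The control base was at 13.1, 17.7 and 23.0 FPKM, above every MCAGF8 pool.

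The phosphate transporters showed no called difference. Slc20a1 (ENSMUSG00000027397, chromosome 2 from 129198764 to 129211616) was at 36.1, 38.8 and 23.1 FPKM in the control vault, 42.8, 22.7 and 45.1 in the MCAGF8 vault, and 26.1, 61.5 and 51.7 in the control base. Its vault ranges overlapped almost wholly, and the log2 difference was 0.14 (SE 0.37, 95% interval -0.69 to 0.97, limma, adjusted p = 0.986). Leaving out MCAGF8 replicate 3 or control vault replicate 3 turned that difference to -0.032 or -0.084.

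Slc20a2 (ENSMUSG00000037656, chromosome 8 from 22476788 to 22569612) ranged from 22.9 to 34.4 FPKM over all 9 libraries, the narrowest range of the 8 genes as a ratio. It was at 26.0, 31.6 and 32.4 FPKM in the control vault, 25.5, 34.4 and 22.9 in the MCAGF8 vault, and 25.7, 23.0 and 30.6 in the control base. Pools of the 3 groups overlapped. The vault difference was -0.13 on the log2 scale (SE 0.20, 95% interval -0.58 to 0.32, limma, adjusted p = 0.976), and it became 0.036 when libraries were rescaled to a common sum. A fall of the size seen for Phospho1 lies outside the intervals of both transporters.

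Ifitm5 (ENSMUSG00000025489, chromosome 7 from 140948958 to 140950291), also called Bril, encodes a small membrane protein of osteoblasts that is altered in a form of osteogenesis imperfecta. It had the highest mean of the 8 genes in both control tissues, at 212, 99.3 and 277 FPKM in the control vault and 54.6, 33.3 and 159 in the control base. MCAGF8 pools were at 8.47, 16.9 and 11.1 FPKM. Every MCAGF8 pool was below both control ranges. The mean fell from 196 ± 90.0 to 12.1 ± 4.30 FPKM (SD, n = 3 each), a 16.2-fold difference. Ifitm5 fell by 3.84 on the log2 scale (SE 0.56, limma, adjusted p = 0.0385).

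**Figure D2:**
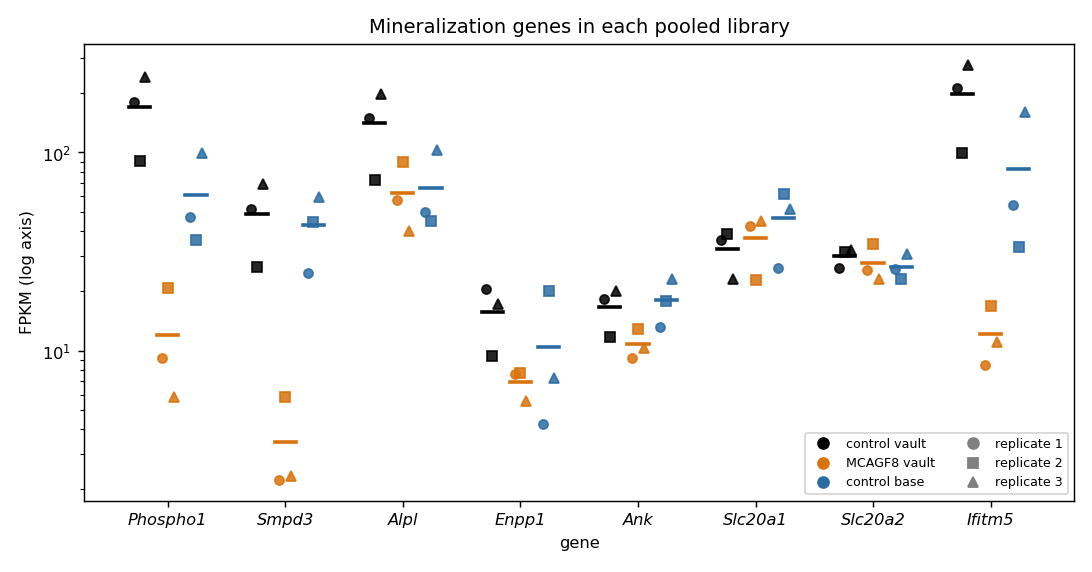
FPKM of the 8 mineralization genes (x axis) in each pooled library, on a log axis. Symbols are libraries, shaped by replicate number, and horizontal lines are means of 3 pools. Phospho1, Smpd3 and Ifitm5 have all MCAGF8 pools far below all control vault pools, while Slc20a1 and Slc20a2 overlap in the 3 groups.

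In the annotation used for these positions, Alpl and Enpp1 overlapped no other gene. Phospho1 lay across parts of Zfp652 and Abi3, Smpd3 shared bases with Prmt7 and Gm10629 on the other strand, and Ifitm5 with Gm45717 on its own strand. Slc20a2 overlapped Smim19, Ank overlapped Otulin and Slc20a1 overlapped Gm4430 and 9830144P21Rik, each on the other strand. Further overlaps on the gene's own strand were Tiaf2, B230362B09Rik and Mir7117 for Ank, Gm17491 for Slc20a2 and Gm26786 for Smpd3. Zfp652 is also on the strand of Phospho1. Whether strand was used when reads were assigned is not stated, so reads in the shared stretches are uncertain for these genes.

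Of the 8 genes 3 were called in the MCAGF8 vault against the control vault, all lower, where 0.374% of the 18714 tested genes were called lower. The groups did not overlap for 4 of the 8, all lower in MCAGF8, against 9.35% of all genes lower without overlap. At an unadjusted p under 0.05, 4 of the 8 were lower, Alpl being the addition, against 3.48% of all genes. The median log2 difference was -1.06 over the 8 genes and -0.01 over all genes. The genes were chosen with earlier results of these data known, and the study reports lower Phospho1 and Ifitm5 from these libraries. The shares of all genes are therefore set beside the counts as a description and not as an independent test. The calls depended on single vault pools. None of the 3 was called without MCAGF8 replicate 1, without MCAGF8 replicate 3, without control vault replicate 1 or without control vault replicate 3, when 11 to 14 genes were called in all, and without MCAGF8 replicate 2 Ifitm5 was not called. The highest adjusted p with 1 library left out was 0.196 for Phospho1, 0.163 for Smpd3 and 0.233 for Ifitm5 (limma). Over these fits the log2 differences stayed between -4.25 and -3.41 for Phospho1, -3.86 and -3.18 for Smpd3 and -4.26 and -3.53 for Ifitm5. In a linear model without moderation no gene of the table was called, and 1223 had an unadjusted p under 0.05, 3 of the 8 among them.

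The order of the levels differed between the tissues. In the control vault the means ran from Ifitm5 over Phospho1, Alpl, Smpd3, Slc20a1, Slc20a2 and Ank to Enpp1. Pools of neighbours in that order overlapped except between Alpl and Smpd3 and between Slc20a2 and Ank. In the MCAGF8 vault Alpl was highest, followed by Slc20a1, Slc20a2, Ifitm5, Phospho1, Ank, Enpp1 and Smpd3, and neighbours overlapped except between Slc20a2 and Ifitm5 and between Ank and Enpp1. Phospho1 and Ifitm5, the most abundant of the 8 transcripts in the control vault, thus stood below both phosphate transporters in the MCAGF8 vault. The control base had the order of the control vault except that Alpl stood above Phospho1 and Slc20a1 above Smpd3, with overlapping pools in both pairs.

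Within a group the same pool was often highest or lowest for most of these genes. The share of all genes with that pattern was not computed. Control vault replicate 2 was the lowest control vault pool for 6 of the 8 genes, with Slc20a1 and Slc20a2 as the exceptions, and replicate 3 was the highest for 6. Among the control vault pools, replicate 2 had the highest marker sums for skeletal muscle, epidermis, chondrocytes and endothelium. Its sums were the lowest for osteoblast, hypertrophic chondrocyte and osteoclast markers. The part of these cell types was not tested. MCAGF8 replicate 2 was the highest MCAGF8 pool for 7 of the 8, the exception being Slc20a1, which was lowest there. Base replicate 3 was the highest base pool for 6, the exceptions being Enpp1 and Slc20a1, which peaked in base replicate 2. MCAGF8 replicate 2 and control vault replicate 3 also had the highest FPKM sums over all genes in their groups, at 1041401 and 1131826. Base replicate 3 did not have the highest sum of its group, nor control vault replicate 2 the lowest. Without the libraries numbered 2 of all 3 groups, a choice made after the values were seen, the same 3 genes were called in the vaults, with 147 called of all genes.

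Against the control base, 3 of the 8 genes were called lower in the MCAGF8 vault, where 5.41% of all tested genes were called lower. This comparison uses the same MCAGF8 libraries as the one above and is not independent of it. Smpd3 fell by 3.30 on the log2 scale (SE 0.44, limma, adjusted p = 0.00621), 12.4-fold, from 42.8 ± 17.5 FPKM, and was called in all 22 alternative fits. Ifitm5 fell by 2.41 (SE 0.56, limma, adjusted p = 0.0392), 6.79-fold, from 82.4 ± 67.4 FPKM. Phospho1 fell by 2.30 (SE 0.52, limma, adjusted p = 0.0361), 5.11-fold, from 61.0 ± 33.9 FPKM. Without MCAGF8 replicate 1 or MCAGF8 replicate 3 only Smpd3 of the 8 was called, and without base replicate 3 Phospho1 was not.

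Cell type markers also differed between the MCAGF8 vault and the base. Of 11 osteoblast markers 3 were called higher and 2 lower in the MCAGF8 vault. Skeletal muscle markers were lower in 10 of 10, all called, with sums of 25.1 to 290 FPKM against 2062 to 12775 in the base. Of 9 chondrocyte markers 7 were higher in the MCAGF8 vault, and 1 was called, lower. They summed to 2291 to 4140 FPKM there and to 683, 8076 and 1110 in the base pools. Base replicates 1 and 3, though dissected as cartilage, were thus below the control vault range of 1602 to 2256. Hypertrophic chondrocyte markers were lower in 5 of 5, with 4 called, and summed to 95.9 to 131 FPKM against 284 to 884. Of 6 tested brain markers 6 were lower and 4 called, and the 7 in the table summed to 60.7 to 105 against 179 to 572 FPKM. In turn, 7 of 7 endothelial markers were higher with 3 called, at 332 to 470 against 241 to 296 FPKM. Their part in the lower levels of Phospho1, Smpd3 and Ifitm5 was not tested.

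The other 5 genes were not called against the base. Ank was below the base in every pool, which made 4 of the 8 genes lower without overlap against 13.0% of all genes. It had a log2 difference of -0.66 (SE 0.27, limma, adjusted p = 0.211, unadjusted p = 0.0337), and 4 of the 8 were lower at an unadjusted p under 0.05 against 12.8% of all genes. In the linear model without moderation 3 of the 8 had an unadjusted p under 0.05. Alpl was nearly level with the base at -0.050 (95% interval -1.05 to 0.95), a value that turned to 0.32 without base replicate 3. Enpp1 was at -0.30 and turned to 0.26 without base replicate 2. Slc20a1 was at -0.30 and Slc20a2 at 0.050, both with overlapping pools. The median was -0.48 over the 8 genes and -0.07 over all genes.

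Between the control tissues 0 of the 8 genes were called by limma, where 3.06% of all tested genes were called, and 0 of the 8 had groups without overlap, against 15.5% of all genes. At an unadjusted p under 0.05 there were 3 (12.8% of all genes) by limma and 0 in the linear model without moderation. These 3 were Phospho1, lower in the base by a log2 difference of -1.49 (limma, adjusted p = 0.231), Ifitm5 at -1.43 (adjusted p = 0.299) and Alpl at -1.06 (adjusted p = 0.348). Smpd3 was nearly even between base and vault, at -0.18 (SE 0.44), a value that reached 0.17 without base replicate 1. Enpp1, at -0.72 (adjusted p = 0.648), was called only without base replicate 2 (-1.28, adjusted p = 0.0916) and without all libraries numbered 2 (adjusted p = 0.0757). Beside these values, 11 of 11 osteoblast markers were lower in the base, with 5 called and a median log2 difference of -2.14, and 9 of 11 epidermis markers had an unadjusted p under 0.05, with 1 called, higher. Of 5 hypertrophic chondrocyte markers 3 were higher in the base, with Col10a1 called at 6.20 (limma, adjusted p = 0.00386), and 2 lower. Skeletal muscle markers were higher in 10 of 10 with 0 called, and brain markers in 4 of 6 with 1 called. Endothelial markers were lower in 7 of 7 with 1 called. The part of these markers in the differences of the 8 genes was not tested. Ank at 0.10, Slc20a1 at 0.44 and Slc20a2 at -0.18 had limma adjusted p from 0.775 to 0.968.

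**Figure D3:**
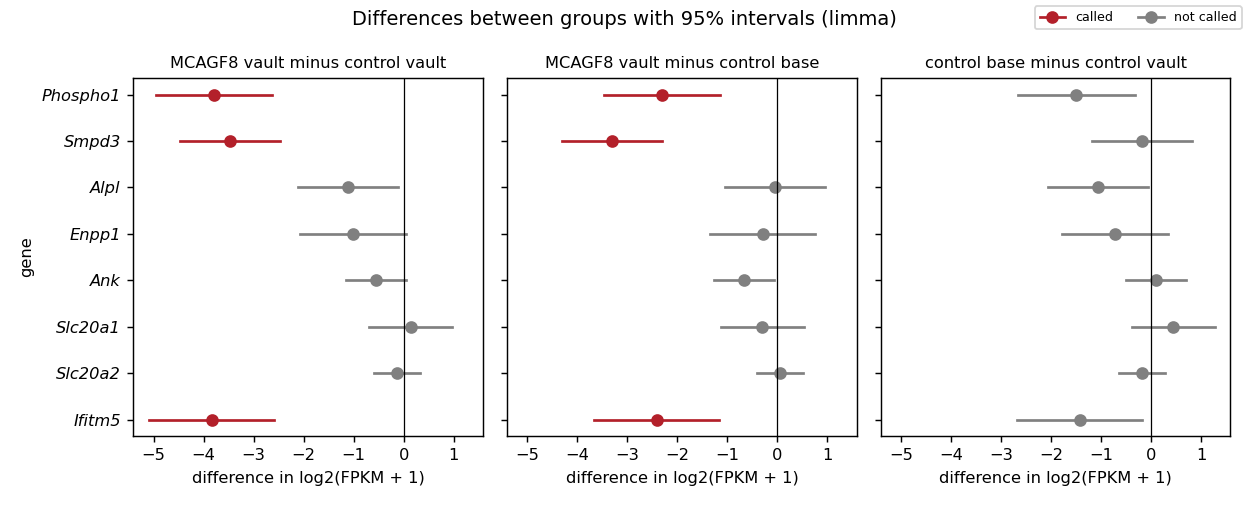
Difference in log2(FPKM + 1) for each of the 8 genes (y axis) in the 3 comparisons, with 95% intervals from limma. Red marks called genes. Phospho1, Smpd3 and Ifitm5 are called in both comparisons of the MCAGF8 vault, and no gene is called between the control tissues.

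Ratios of FPKM within a library do not depend on how libraries are scaled. The pairs were chosen after the values were seen, and the ratios are a description with no test. Alpl to Phospho1 was 0.831, 0.800 and 0.826 in the control vault pools, 6.31, 4.31 and 6.91 in the MCAGF8 pools, and 1.07, 1.24 and 1.03 in the base pools. The 3 groups did not overlap, although Alpl itself varied 2.74-fold among the control vault pools. Smpd3 to Phospho1 was 0.289, 0.291 and 0.287 in the control vault, 0.242, 0.280 and 0.401 in the MCAGF8 vault and 0.521, 1.23 and 0.596 in the base. The MCAGF8 range enclosed that of the control vault, and all base pools were above both. Ifitm5 to Phospho1 ran from 1.10 to 1.18 in the control vault, 0.812 to 1.90 in the MCAGF8 vault and 0.920 to 1.60 in the base, and so overlapped in all groups.

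The same values were set against Sp7, the osteoblast transcription factor Osterix, which was at 105, 55.4 and 123 FPKM in the control vault and 17.5, 20.6 and 16.0 in the MCAGF8 vault. Alpl to Sp7 was 1.31 to 1.62 in the control vault, 2.51 to 4.33 in the MCAGF8 vault and 1.28 to 1.67 in the base. Phospho1 to Sp7 was 1.63 to 1.96, 0.364 to 1.01 and 1.24 to 1.35 in the same order. Relative to Sp7, Alpl was thus higher and Phospho1 lower in each MCAGF8 pool than in each control vault pool. Smpd3 to Sp7 was 0.476 to 0.563 in the control vault and 0.127 to 0.282 in the MCAGF8 vault. Ifitm5 to Sp7 was 1.79 to 2.26 in the control vault and 0.484 to 0.817 in the MCAGF8 vault. Enpp1 to Alpl, the maker of pyrophosphate against the enzyme that removes it, was 0.0865 to 0.138 in the control vault and 0.0858 to 0.138 in the MCAGF8 vault. These ranges overlapped, and base replicate 2 stood out at 0.443 against 0.0846 and 0.0706. Slc20a1 to Slc20a2 overlapped in the 3 groups.

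**Figure D4:**
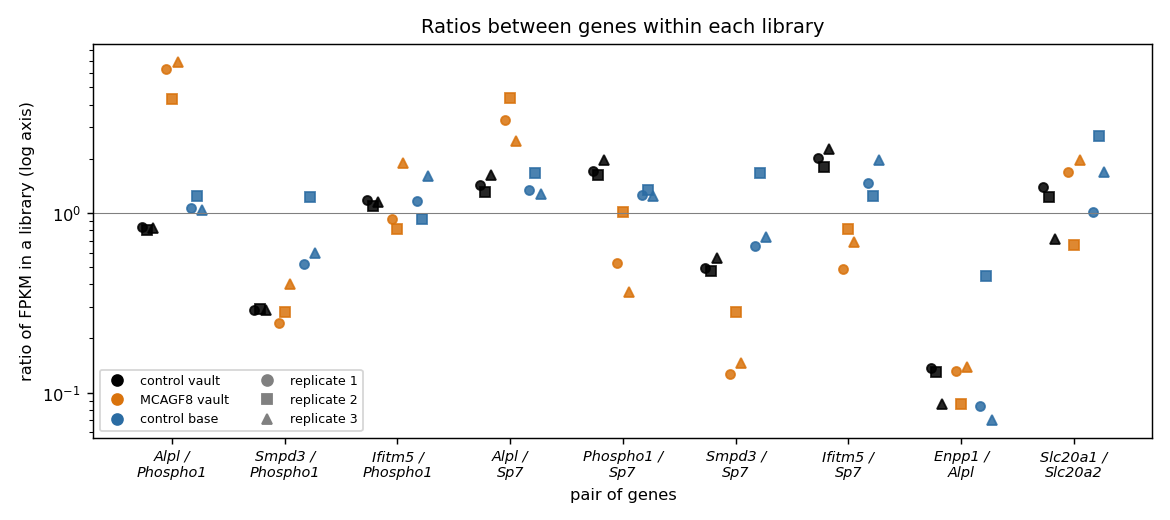
Ratio of FPKM between pairs of genes within each library, on a log axis, with colour for group and shape for replicate. The grey line marks equal levels. Alpl to Phospho1 is near 0.8 in the control vault pools and at least 4.31 in the MCAGF8 pools, whereas Enpp1 to Alpl overlaps between the vaults.

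Of 20 further genes of phosphate and pyrophosphate handling, 15 were expressed enough to be tested. Between the vaults 0 were called by limma (2 at an unadjusted p under 0.05, with 0 and 5 when not moderated), where 0.604% of all genes were called in either direction, with a median log2 difference of -0.09. Of all 18714 genes 1186 had an unadjusted p under 0.05 by limma. When not moderated, 0 of all genes were called and 1223 had an unadjusted p under 0.05. Enpp6, a glycerophosphocholine phosphodiesterase, was at 2.51, 1.18 and 2.13 FPKM in the control vault and 0, 0.414 and 0.151 in the MCAGF8 vault, a log2 difference of -1.29 (SE 0.31, limma, adjusted p = 0.187). Nt5e, the ecto-nucleotidase CD73 that turns AMP into adenosine and phosphate, was at 7.94, 11.6 and 7.15 FPKM and at 17.8, 16.2 and 34.2, a difference of 1.21 (SE 0.30, adjusted p = 0.205). Neither gene's pools overlapped between the vaults, which held for 9 of the 15 tested genes of this list and 3602 of all 18714. Slc34a3, Alpi and Alppl2 were listed at 0 in every library.

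Annexins, calcium-binding proteins of matrix vesicles, were abundant in all groups. Their 7 listed members summed to 2039 to 2643 FPKM in the control vault and 1824 to 2219 in the MCAGF8 vault. None of the 7 was called by limma or by the linear model, and 0 had an unadjusted p under 0.05 in either. Their median log2 difference was -0.13, with Anxa2 at -0.43 (SE 0.36) and Anxa1 at -0.36 (SE 0.63).

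Among 10 inhibitors and regulators of mineralization 7 were tested and 0 were called between the vaults by limma (3 at an unadjusted p under 0.05, with 0 and 3 when not moderated). The median log2 difference of the 7 was -0.49. Phex, an endopeptidase of the osteoblast surface whose loss causes phosphate wasting, was at 18.0, 5.55 and 12.3 FPKM in the control vault and 1.75, 1.95 and 2.46 in the MCAGF8 vault. Its pools did not overlap, which held for 3 of the 7 tested regulators. Its log2 difference of -1.96 (SE 0.40, limma, adjusted p = 0.105) lay just outside the threshold. Fam20c, the kinase of secreted matrix phosphoproteins, was at 17.5, 11.0 and 12.9 FPKM and at 7.20, 8.48 and 5.08, a difference of -0.90 (SE 0.29, adjusted p = 0.439).

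Against the control base 5 genes of these 3 lists were called, where 8.39% of all genes were called in either direction. Entpd2, an ecto-nucleotidase, was lower, with a log2 difference of -2.22 (limma, adjusted p = 0.0182), as were Phex at -1.50 (adjusted p = 0.0652) and Fam20c at -1.17 (adjusted p = 0.0527). Nt5e was higher by 0.99 (adjusted p = 0.0959) and Fam20a, a pseudokinase partner of Fam20c, by 1.10 (adjusted p = 0.0758). Without moderation 0 of the 7 tested regulators, Phex, Fam20c and Fam20a included, were called. Of the 15 tested genes of phosphate and pyrophosphate handling 2 were called without moderation, a count that does not name them. No annexin was called in that comparison by limma or the linear model (2 at an unadjusted p under 0.05 in each), and the largest differences were Anxa1 at -0.71 and Anxa6 at 0.58. No gene of the 3 lists was called between base and control vault by limma (5 at an unadjusted p under 0.05, with 0 and 3 when not moderated). The largest differences there were Entpd2 at 1.36 and Enpp6 at -0.74 in the first list, Anxa2 at -0.65 and Anxa4 at -0.40 among the annexins, and Fam20a at -0.95 and Phex at -0.46 among the regulators.

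Genes whose pattern was most like each of the 8 were sought among 12934 genes with a mean of at least 5 FPKM, by Pearson r of log2(FPKM + 1) over the 9 libraries, which share 3 groups, so that r follows group means and carries no p. Phospho1 was most like Ibsp (r = 0.988), Spp1 (0.988) and Cgref1 (0.981), the first and second being matrix phosphoproteins of bone. Ifitm5 was most like Cgref1 (0.991), Sp7 (0.989) and Phospho1 (0.980). Smpd3 was most like Sgms2 (0.979), a sphingomyelin synthase, Panx3 (0.971), a channel protein of bone and cartilage, and Vit (0.956). None of the 3 Alpl neighbours, Smpdl3b (0.964), Ifngr1 (0.961) and Htra2 (0.959), is an osteoblast marker of the list used here. The same holds for the neighbours named for Smpd3, Enpp1, Ank, Slc20a1 and Slc20a2, so Alpl is not set apart by this. Enpp1 was most like B4galnt3 (0.913), Klf12 (0.875) and Ddx21 (0.869), the lowest values of the set. Ank was most like Cadm1 (0.981), Spock1 (0.970) and L3hypdh (0.934). Slc20a1 was most like Clasp2 (0.970) and Pabpn1 (0.965), and Slc20a2 was most like Vapb (0.994), Ctsd (0.979) and Gm6263 (0.965). Among the 8 genes themselves r was 0.923 for Phospho1 with Smpd3, 0.792 for Phospho1 with Alpl, 0.570 for Alpl with Smpd3 and -0.590 for Slc20a1 with Slc20a2.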

How the data were processed

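The authors sequenced stranded mRNA libraries, aligned the single-end reads with gSNAP, obtained FPKM from Cufflinks and deposited 1 table of FPKM per Ensembl gene. The sources used here do not give the genome build, the annotation or any program version. Gene positions come from GENCODE M21 (GRCm38) by identifier, and promoters are RefSeq sequences of GRCm38.p6, found for 6 of the 8 genes. The number of reads is unknown, so precision rests on 3 pools per group.

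Of 43611 rows, 63 repeated an identifier and were summed, giving 43548 identifiers. In 9 of them 17 cells held a placeholder, and those genes were left out. None of the 8 genes was affected. FPKM were put on the log2(FPKM + 1) scale, with a pseudocount of 1 that makes changes of low genes look smaller. The 18714 genes with a mean of at least 0.5 FPKM, all 8 among them, went into a limma 3.58.1 fit (R 4.3.3, eBayes with trend, two-sided) with 1 mean per group over 9 libraries, and p-values were adjusted by Benjamini-Hochberg over all of them. Folds are ratios of mean FPKM. The fit was checked on simulated data. Tables and plots used Python 3.11.15, pandas 2.3.3, numpy 2.4.6 and matplotlib 3.10.9.

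The 8 genes are named in every comparison. From the 3 further lists every called gene is named or, with fewer than 2 called, the 2 of largest difference, and for each of the 8 genes the 3 most alike in pattern, of which 1 is not reported here. Other names were chosen after their values were seen. The genes and lists were chosen with earlier results of these data known. Alternatives were other pseudocounts, filters, scalings, thresholds and models, a replicate block, and each library left out.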

Additional observations from a re-analysis of the deposited data

How the results depend on the processing

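Of the 8 genes, 3 were called between the vaults under every pseudocount, filter and scaling tried. The number was 0 in a linear model without moderation and 0 to 3 when 1 library was left out. Between the MCAGF8 vault and the control base, 1 (Smpd3) was called without moderation and 1 to 3 with 1 library left out. Between the control tissues 0 were called, 3 passed an unadjusted p under 0.05, and 0 to 1 (Enpp1) were called with 1 library left out, or 1 without all libraries numbered 2. The cause of these changes, beyond fewer libraries in the fit, was not tested.

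Small log2 differences changed sign. In the vaults, Slc20a2 became 0.036 with a common sum, and Slc20a1 ranged from -0.084 to 0.45 with 1 library left out (-0.032 without MCAGF8 replicate 3). Against the base, Alpl became 0.16 with a common sum and 0.055 with a common median, and with 1 library left out it ranged from -0.34 to 0.32 (0.22 without MCAGF8 replicate 3), Enpp1 from -0.74 to 0.26, Slc20a2 from -0.11 to 0.17 (-0.042 without base replicate 2) and Slc20a1 from -0.66 to 0.0059. Without all libraries numbered 2, Enpp1 was 0.19, Slc20a1 0.25 and Slc20a2 -0.21. For base against control vault, Ank became -0.000415 with a common median and -0.12 without all libraries numbered 2, and with 1 library left out it ranged from -0.11 to 0.30 (-0.085 without base replicate 3), and Smpd3 from -0.56 to 0.17 (0.12 without control vault replicate 3).

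Counts over all genes moved more. Between the vaults 113 genes were called, 191 and 192 with pseudocounts of 0.1 and 0.01, 66 without a filter, 71 with a mean of at least 5 FPKM, 174 with only the libraries of both vaults, 35 at an adjusted p under 0.05, 1186 at an unadjusted p under 0.05, 0 without moderation and 11 to 231 with 1 library left out. Against the base the 1571 became 834 with a mean of at least 5 FPKM, 875 with only the libraries compared, 869 without moderation, 941 at an adjusted p under 0.05, 3675 at an unadjusted p under 0.05, 559 to 4580 with 1 library left out and 4349 without all libraries numbered 2. For base against control vault the 573 became 291, 108, 257, 255 and 2396 under the first 5 of these settings and 132 to 1322 with 1 library left out. Between the vaults the share of calls that were higher moved from 38.1% (43 of 113) to 65.2% (43 of 66) without a filter, with 70 and 23 lower calls. Quantile normalization moved the share of calls that were higher from 35.5% to 58.7% against the base (48.3% with a common sum, 48.5% with a common median) and from 60.6% to 37.7% for base against control vault. A common sum moved the median of all genes from -0.01 to 0.13 between the vaults and from -0.07 to 0.11 against the base.

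Replicate numbers are shared by the groups, but whether they pair the samples is not stated. Over 9 pairs of same-numbered libraries, the correlation of deviations from group means ran from -0.55 to 0.37, with 2 over 0.1. A pair of different numbers, MCAGF8 vault 2 with control vault 3, reached 0.56. With 3 pools per group such correlations cannot settle whether samples are paired. With a replicate block, 2 of the 8 genes were called between the vaults (Smpd3 and Ifitm5, with Phospho1 at limma adjusted p = 0.132), 3 against the base and 0 between the control tissues, and 19, 918 and 234 genes were called in all.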
